A study of Homo sapiens with 6 samples.

Results

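The genes described here are the E2F transcription factors E2F1 to E2F8 and the pocket proteins RB1 and RBL1. They were taken by symbol from the deposited gene table, which gave 10 genes of 35993: 3 activator E2Fs, 5 repressor E2Fs and 2 pocket proteins. RNA was sequenced from MIA PaCa-2, an established human pancreatic carcinoma cell line. All wells were seeded and moved to medium with 1% FBS. Untreated cells, labelled Control, were set against cells given 4 µM rhCYGB, recombinant human cytoglobin that the authors made in bacteria, for 48 h. There were 3 libraries per group, no vehicle is named for the untreated cells, and a single cell line was used. The labels do not say whether the libraries came from separate cultures, so p-values measure the spread between these libraries, which may be technical.

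E2F factors bind promoters of genes for DNA replication and cell division. E2F1, E2F2 and E2F3 are known as activators that switch these genes on at entry into S phase. E2F4 and E2F5 repress in quiescent and early G1 cells together with pocket proteins, E2F6 represses with Polycomb proteins and without pocket proteins, and E2F7 and E2F8 are atypical repressors that bind DNA without a DP partner and are themselves made in S phase. RB1 holds activator E2Fs until cyclin-dependent kinases phosphorylate it, and RBL1, also called p107, works mainly with E2F4.

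The read counts on genes summed to between 34838399 and 42271299 per library. Levels are given as CPM, counts relative to the library size after scaling with TMM factors, and 3 counts corresponded to 0.0669 to 0.0902 CPM. Changes are log2 fold changes of rhCYGB over untreated libraries from the quasi-likelihood test of edgeR, with p-values adjusted over the 14728 genes tested by the method of Benjamini and Hochberg, and a gene was called at an adjusted p under 0.05. The single coefficient of variation that edgeR fitted over all genes, apart from counting error, was 5.48%, so that small changes were called. The observed coefficient of single genes, which includes counting error, is not the same measure. It ran from 1.90% (RBL1, rhCYGB libraries) to 33.3% (E2F8, rhCYGB libraries) among the 10. Gene positions are those of the deposited table, whose build is not known: the submitters' notes name only mm10, a mouse build, which these human positions cannot be. They are not positions of GRCh38.p14, the build of the promoters below. E2F1 ends at 32274191 here, and its promoter lies at 33686386 to 33686485 there. Levels were compared between genes only as the deposited FPKM, which takes length into account. Of the markers that a pancreatic carcinoma line could show, KRT8, KRT18, KRT19 and VIM were abundant in every library, while EPCAM had 0 counts and CDH1 at most 2. Of 9 markers of other cell types, PECAM1 and PTPRC had 0 counts in every library, and the summed level of the 9 was 153 to 169 CPM in untreated and 87.1 to 91.5 CPM in rhCYGB libraries, where CDH5 was lower (109 to 122 CPM in untreated and 10.5 to 13.6 CPM in rhCYGB libraries) and CD68 was higher (34.3 to 38.0 and then 70.4 to 72.4 CPM). Whether this bears on the results was not tested.

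All 10 genes passed the filter on low counts, and 9 were called, where 11427 of all 14728 genes tested were called. E2F3, E2F5, E2F6 and RB1 were higher in rhCYGB libraries, 4 of the 10 where 39.0% of all tested genes were called higher. E2F1, E2F2, E2F7, E2F8 and RBL1 were lower, 5 of the 10 where 38.6% of all tested genes were called lower. For so few genes, both counts were near the shares of all genes. At 2-fold or more, E2F1, E2F2 and E2F8 were lower, 3 of the 10 against 14.7% of all genes, and E2F5 was higher, 1 of the 10 against 12.4%. Both directions occurred among the activators, among the repressors and between the pocket proteins, so the sign of the change did not follow the activator and repressor classes. In these bulk libraries fewer cells in a phase of the cell cycle and less RNA per cell cannot be told apart.

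**Figure D1:**
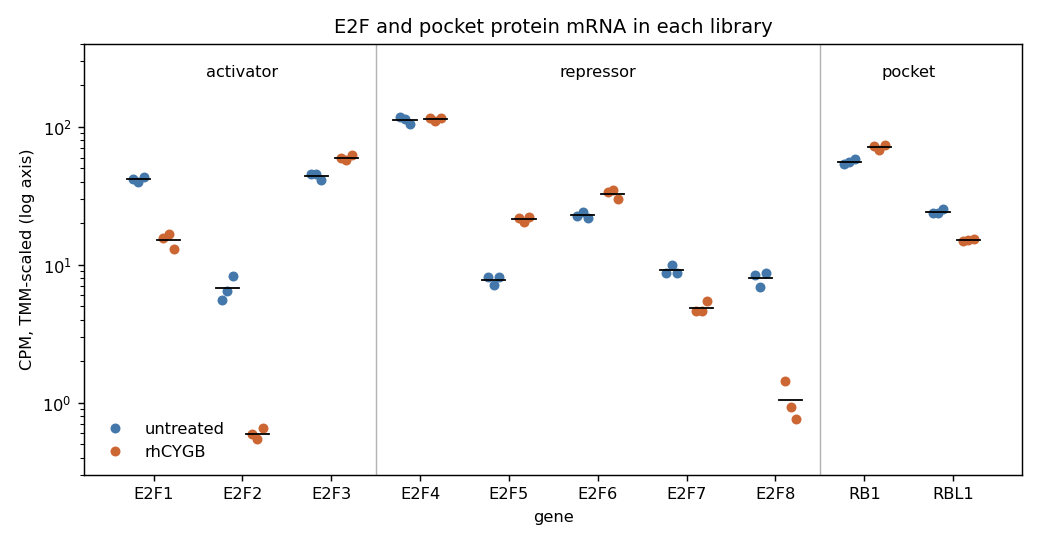
CPM on a log axis for the 10 genes, in 3 untreated libraries (blue) and 3 rhCYGB libraries (orange), with the mean of each group as a line. The groups overlap for E2F4, and E2F2 and E2F8 show the widest gaps.

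Among the activators, E2F1 and E2F2 fell while E2F3 rose. E2F1 (gene 1869, chromosome 20, 32263283 to 32274191), which drives replication genes and can also induce cell death genes, had 1563, 1798 and 1765 counts in untreated libraries and 584, 553 and 483 in rhCYGB libraries. Its level fell from 41.8 ± 1.59 to 15.1 ± 1.83 CPM (SD, n = 3 each), or 36.2% of the untreated level. The log2 fold change was -1.47 (SE 0.0755, 95% interval -1.63 to -1.30) with an adjusted p of 8.26e-11 by edgeR. The highest rhCYGB library lay well below the lowest untreated library.

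E2F2 (gene 1870, chromosome 1, 23832930 to 23857725), an activator much like E2F1, had the largest log2 fold change of the 10 genes in the edgeR test. It had 208, 290 and 337 counts in untreated libraries and 22, 18 and 24 in rhCYGB libraries. The level fell from 6.77 ± 1.37 to 0.595 ± 0.0550 CPM (SD, n = 3 each), 11.3-fold lower. The log2 fold change was -3.50 (SE 0.205, 95% interval -3.94 to -3.06), and the edgeR adjusted p was 3.94e-10. The untreated libraries spread over 5.58 to 8.26 CPM, a coefficient of variation of 20.2%, and even the lowest of them was far above all rhCYGB libraries. The interval for E2F2 did not meet that for E2F1, although the low counts after treatment made it wider. With limma on log2(FPKM + 1), a scale that shrinks changes of low genes, the E2F2 difference was -1.01, smaller than those of E2F1 (-1.45) and E2F8 (-1.31), so the order of the changes turned.

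E2F3 (gene 1871, chromosome 6, 20402110 to 20493945), the third activator, moved the other way. It had 1704, 2047 and 1674 counts in untreated and 2210, 1902 and 2297 in rhCYGB libraries. On the CPM scale these were 44.2 ± 2.69 and 59.7 ± 2.57 (SD, n = 3 each), and the groups did not overlap. The log2 fold change was 0.43 (SE 0.0545, adjusted p 2.92e-06 by edgeR), a rise to 135% of the untreated level. Its size depended on the scaling, with values from 0.27 to 0.46 under the alternatives.

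Promoter sequence is shown for the 4 genes whose window held an E2F string, since these 4 did not all move in 1 direction. RefSeq start sites of the GRCh38.p14 build were found for 8 of the 10 genes, with 9 start sites in all. E2F5 and E2F8 had no entry. Windows from 250 bases before to 50 bases after the start were searched on both strands for TTTCCCGC, TTTGGCGC, TTTCGCGC and TTTGCCGC, which are forms of the known E2F site, and for TTTGAA, the CHR element. The E2F strings do not overlap one another here. The last 100 bases before the start are printed 5′ to 3′ in the direction of the gene, with E2F strings of either strand in capitals, at chr20:33686386-33686485 (minus strand) for E2F1, chr1:23531234-23531333 (minus) for E2F2, chr6:20401779-20401878 (plus) for E2F3 and chr20:37095998-37096097 (minus) for RBL1.
E2F1: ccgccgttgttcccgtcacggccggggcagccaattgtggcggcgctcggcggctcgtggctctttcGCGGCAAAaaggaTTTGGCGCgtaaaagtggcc
E2F2: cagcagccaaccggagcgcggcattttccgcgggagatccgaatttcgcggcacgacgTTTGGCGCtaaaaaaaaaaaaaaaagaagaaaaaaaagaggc
E2F3: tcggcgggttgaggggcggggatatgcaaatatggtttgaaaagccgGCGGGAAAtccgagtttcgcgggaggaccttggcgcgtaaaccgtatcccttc
RBL1: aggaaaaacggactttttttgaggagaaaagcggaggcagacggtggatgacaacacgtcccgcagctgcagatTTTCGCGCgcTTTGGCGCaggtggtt

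The E2F1 window held TTTGGCGC from 20 bases before the start and TTTGCCGC, read on the opposite strand, from 33 bases before it. E2F2 held TTTGGCGC from 42 bases before the start. RBL1 held TTTGGCGC from 16 and TTTCGCGC from 26 bases before it. E2F1, E2F2 and RBL1 were all lower after rhCYGB, but E2F3, which was higher, also held TTTCCCGC on the opposite strand from 53 bases before its first start site, together with TTTGAA from 65 bases before it. The second start site of E2F3 and the windows of E2F4, E2F6, E2F7 and RB1 held none of the strings. Of all 35116 RefSeq windows, 3.31% held at least 1 of the 4 E2F strings (1.63% TTTCCCGC, 0.652% TTTGGCGC, 0.515% TTTCGCGC and 0.607% TTTGCCGC) and 15.2% held TTTGAA. Of the 15951 windows of tested genes, 4.94% held at least 1 of the E2F strings. These matches describe the letters of the windows; no binding was measured.

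E2F4 (gene 1874, chromosome 16, 67226058 to 67232821), the most abundant E2F in both groups, was the 1 gene that was not called. It had 4398, 5098 and 4319 counts in untreated and 4312, 3674 and 4280 in rhCYGB libraries, or 113 ± 6.16 and 114 ± 3.26 CPM (SD, n = 3 each). The groups overlapped, and the log2 fold change was 0.02 (SE 0.0450, 95% interval -0.08 to 0.12) with an edgeR adjusted p of 0.677. E2F4 depended on the scaling. As FPKM, which does not use TMM factors, the rhCYGB libraries (42.5 to 46.6) all lay below the untreated ones (47.2 to 51.8). With library sizes left at the total counts the log2 fold change was -0.14 (adjusted p 0.00756), in a fit where the median of all genes also moved, to -0.17.

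E2F5 (gene 1875, chromosome 8, 86089389 to 86126753), the closest relative of E2F4, was higher. It had 302, 321 and 332 counts in untreated and 819, 680 and 818 in rhCYGB libraries, and the level rose from 7.80 ± 0.555 to 21.6 ± 0.972 CPM (SD, n = 3 each). The rise was 2.77-fold (log2 fold change 1.47, SE 0.0823, 95% interval 1.29 to 1.64, adjusted p 2.26e-10 by edgeR), and the groups were far apart. E2F5 shares 471 bases at its end with RBIS, a gene with 553 to 879 counts per library. The log2 fold change of RBIS was -0.17 (adjusted p 0.0625). The library kit was stranded, but whether strand was used in the counting is not given in the sources used here.

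E2F6 (gene 1876, chromosome 2, 11584501 to 11606303), the repressor of the Polycomb complex PRC1.6, had 848, 1083 and 889 counts in untreated and 1251, 1156 and 1108 in rhCYGB libraries. The level went from 22.9 ± 1.19 to 32.8 ± 2.46 CPM (SD, n = 3 each) without overlap of the groups. Its log2 fold change was 0.52 (SE 0.0663, adjusted p 3.66e-06 by edgeR), with values from 0.31 to 0.58 under the alternatives. Reads of E2F6 may be shared with its pseudogenes E2F6P1, E2F6P2 and E2F6P3, which had 32 to 70, 14 to 28 and 11 to 25 counts.

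Both atypical repressors were lower. E2F7 (gene 144455, chromosome 12, 77415031 to 77459349) had 327, 448 and 355 counts in untreated and 173, 154 and 200 in rhCYGB libraries, and fell from 9.16 ± 0.726 to 4.90 ± 0.452 CPM (SD, n = 3 each). The log2 fold change was -0.90 (SE 0.116, 95% interval -1.15 to -0.65, adjusted p 4.06e-06 by edgeR). E2F8 (gene 79733, chromosome 11, 19245610 to 19263202), its close homologue, had 317, 310 and 353 counts and then 53, 31 and 28. It was 7.67-fold lower, from 8.03 ± 0.964 to 1.04 ± 0.346 CPM (SD, n = 3 each), with a log2 fold change of -2.94 (SE 0.199, 95% interval -3.36 to -2.52, adjusted p 2.10e-09 by edgeR). The intervals of their changes did not meet. With limma on log2(FPKM + 1), the changes were -0.54 for E2F7 and -1.31 for E2F8.

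The pocket proteins moved in opposite directions. RB1 (gene 5925, chromosome 13, 48877883 to 49056026) had 2007, 2484 and 2384 counts in untreated and 2721, 2255 and 2745 in rhCYGB libraries. This was a rise from 55.9 ± 2.33 to 71.8 ± 3.56 CPM (SD, n = 3 each), with a log2 fold change of 0.36 (95% interval 0.25 to 0.47, adjusted p 8.46e-06 by edgeR). It was called under every alternative, with values from 0.18 to 0.40. RBL1 (gene 5933, chromosome 20, 35624752 to 35724400) had 883, 1059 and 1040 counts and then 556, 502 and 572, and fell from 24.3 ± 1.06 to 15.2 ± 0.289 CPM (SD, n = 3 each; log2 fold change -0.68, SE 0.0637, adjusted p 1.11e-07 by edgeR). The groups did not overlap for either gene. The ratio of RB1 to RBL1 in FPKM, which no library scaling can change, was 2.71, 2.79 and 2.72 in untreated and 5.76, 5.30 and 5.67 in rhCYGB libraries.

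**Figure D2:**
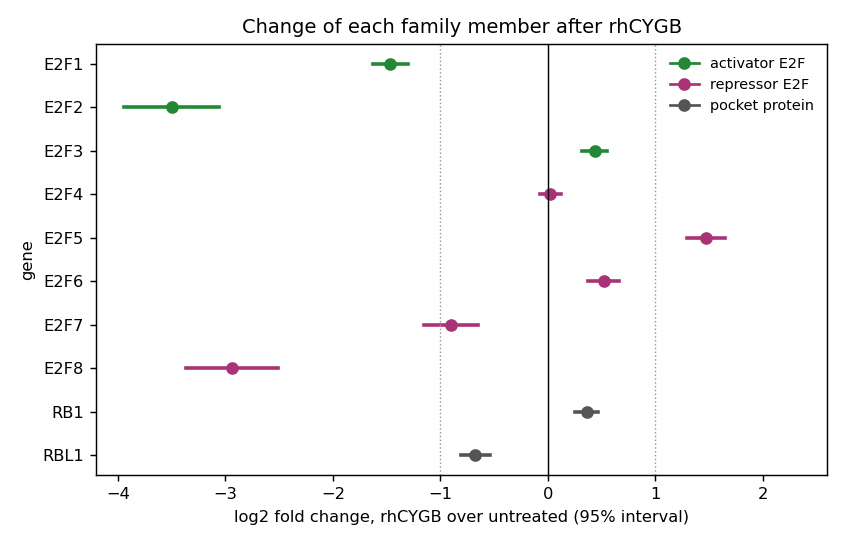
Log2 fold change of rhCYGB over untreated libraries for the 10 genes, with the 95% interval as a bar, coloured by role, and dotted lines at a 2-fold change. E2F2 (-3.50) and E2F8 (-2.94) lie far to the left, E2F5 (1.47) to the right, and only the E2F4 interval spans 0.

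As FPKM, E2F4 was the most abundant of the 10 genes in both groups, at 49.7 ± 2.34 in untreated and 45.0 ± 2.23 in rhCYGB libraries (SD, n = 3 each). In untreated libraries E2F1 followed at 14.5, then RB1 at 10.9, E2F3 at 8.58, E2F6 at 6.52, RBL1 at 3.99, E2F5 at 3.69, E2F8 at 2.06, E2F7 at 1.49 and E2F2 at 1.21. The ranges of RBL1 and E2F5 overlapped, and so did those of E2F7 and E2F2. In rhCYGB libraries RB1 was next after E2F4 at 12.5, then E2F3 at 10.5, E2F5 at 9.13, E2F6 at 8.36, E2F1 at 4.67, RBL1 at 2.24, E2F7 at 0.711, E2F8 at 0.230 and E2F2 at 0.0925. Here the ranges of RB1, E2F3, E2F5 and E2F6 ran into one another. E2F1 thus went from the second to the sixth place, and E2F5 from the seventh to the fourth.

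The summed FPKM of the 3 activators was 24.3, 23.7 and 24.8 in untreated and 15.4, 14.6 and 15.8 in rhCYGB libraries. The sum of the 5 repressors was 65.7, 63.8 and 61.0 and then 65.0, 60.4 and 65.0. On the FPKM scale the activator sum was thus lower without overlap and the repressor sums overlapped. The repressors differed among themselves on this scale. E2F4 went from 49.7 ± 2.34 to 45.0 ± 2.23 FPKM and E2F7 and E2F8 together from 3.55 ± 0.148 to 0.941 ± 0.0771 FPKM, while E2F5 went from 3.69 ± 0.273 to 9.13 ± 0.610 and E2F6 from 6.52 ± 0.307 to 8.36 ± 0.467 FPKM (SD, n = 3 each). The ratio of repressor to activator FPKM was 2.70, 2.69 and 2.46 in untreated and 4.21, 4.12 and 4.10 in rhCYGB libraries. These sums use the members' own changes and carry no test. FPKM does not use the TMM factors, which were 1.06 in each untreated library and 0.932, 0.955 and 0.946 in rhCYGB libraries. With these factors both sums would be higher in rhCYGB relative to untreated libraries, so the overlap of the repressor sums depends on the scaling. The ratio does not.

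The makeup of the activator mRNA also differed. E2F3 made up 35.4% ± 2.13 of activator FPKM in untreated and 68.8% ± 4.14 in rhCYGB libraries (SD, n = 3 each), and the ratio of E2F3 to E2F1 went from 0.594 ± 0.0478 to 2.29 ± 0.473. E2F1 was the leading activator in every untreated library and E2F3 in every rhCYGB library. The split of E2F3 counts between its transcripts, given below, varied between libraries, and its FPKM may rest on that split. Of the FPKM of all 8 E2F genes, E2F4 held 56.6% ± 1.40 and then 57.2% ± 0.533, E2F1 held 16.5% ± 0.977 and then 5.95% ± 0.797, and E2F5 held 4.21% ± 0.333 and then 11.6% ± 0.310.

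**Figure D3:**
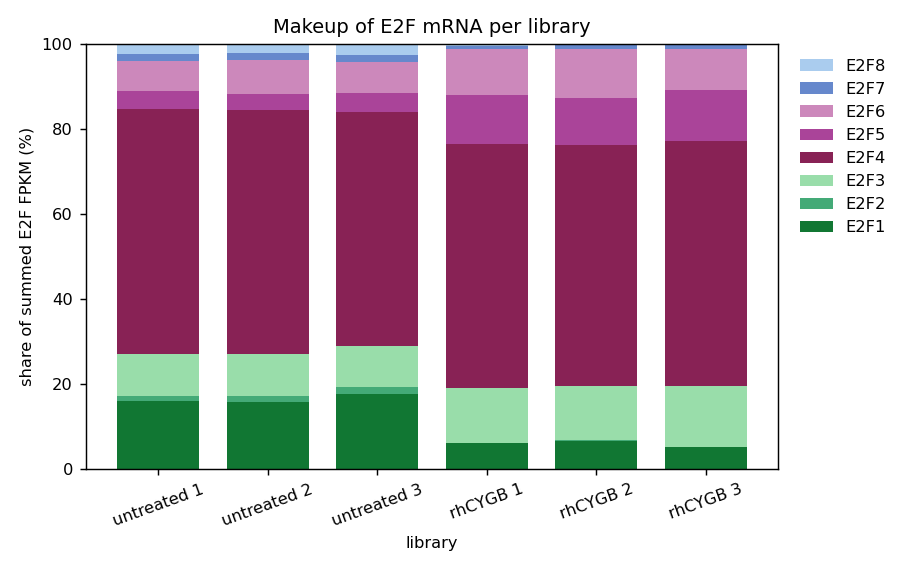
Share of the summed FPKM of the 8 E2F genes held by each, in percent, as stacked bars for the 6 libraries, activators in green, E2F4 to E2F6 in purple and E2F7 and E2F8 in blue. The E2F4 band stays near 57% in all libraries, the E2F1 band is narrower and the E2F5 and E2F6 bands are wider in rhCYGB libraries.

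The deposited transcript table listed 24 RefSeq transcripts of the 10 genes, 18 of which passed the filter. edgeR called 8 of the 18, where 29.9% of all tested transcripts were called: 3 higher and 5 lower, each in the direction of its gene. E2F5 rose in both of its main transcripts alike, by 1.37 on the log2 scale for NM_001083588 (SE 0.231, adjusted p 0.00817) and by 1.40 for NM_001951 (SE 0.227, adjusted p 0.00710). The main E2F8 transcript NM_024680 fell by 2.64 on the log2 scale (SE 0.436, adjusted p 0.00749), and the main RBL1 transcript NM_002895 by 0.76 (SE 0.124, adjusted p 0.00741). E2F1, E2F2, E2F4, E2F7 and RB1 were each listed with 1 transcript, and RB1 was called there at an adjusted p of 0.0140 that rose to 0.0535 without untreated replicate 2.

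E2F3 has a long form, E2F3a, and a short form, E2F3b, that starts inside the gene. NM_001949, which starts at the first base of the gene, took 59.4%, 76.8% and 53.8% of E2F3 counts in untreated and 56.9%, 72.9% and 21.5% in rhCYGB libraries, and NM_001243076, which starts 1800 bases later, took the rest. The shares overlapped, and neither form was called (adjusted p 0.998 and 0.267 by edgeR). For E2F6 the leading transcript NM_198256 took 42.7%, 61.2% and 47.8% and then 73.6%, 27.4% and 43.9%. None of the 6 tested E2F6 transcripts was called, although the gene was. The E2F8 transcript NM_001256372 took 60.3% in untreated library 1 but 14.8% and 13.3% in the other untreated libraries, and 15.1%, 0% and 0% after rhCYGB.

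A change in the use of transcripts, tested with edgeR's diffSpliceDGE, was called for 0 of 12 transcripts of these genes, where 2.40% of all transcripts so tested were called, and 0 of the 12 had an unadjusted p under 0.05. This does not show that use was the same in both groups. Gene counts equalled the summed transcript counts for all 10 genes, so gene counts and CPM do not rest on how reads were split between transcripts. Gene FPKM, which takes length into account, may rest on it.

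**Figure D4:**
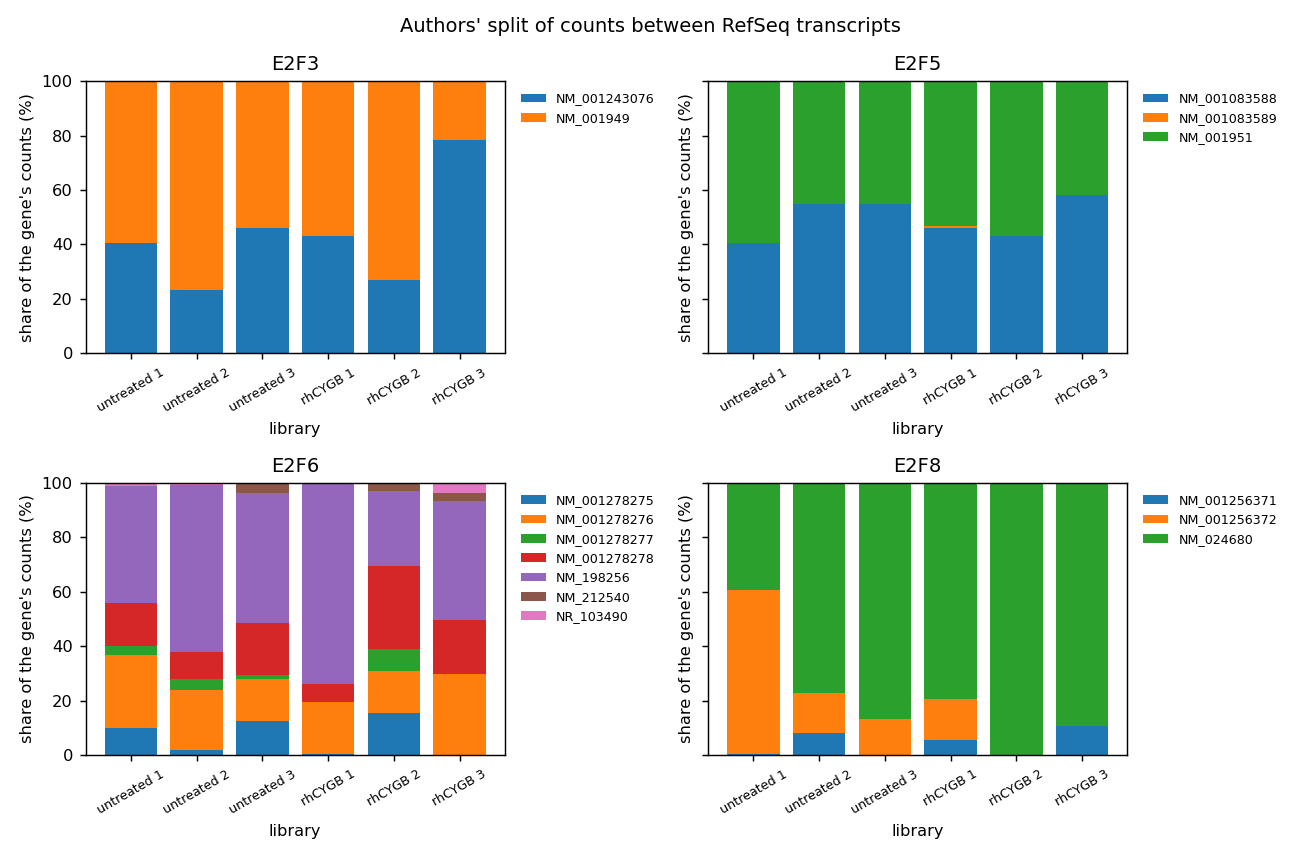
Share of the gene's counts, in percent, that the deposited table gives to each RefSeq transcript of E2F3, E2F5, E2F6 and E2F8 in the 6 libraries. The shares of E2F3 and E2F6 transcripts vary widely within each group and overlap between groups, and those of the main E2F5 transcripts stay between 40.4% and 59.6%.

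Of 10 genes for DP partners, RBL2 and subunits of the MuvB complex, 9 were tested, 6 were lower, against 38.6% of all tested genes, 2 were higher, against 39.0%, and LIN52 (log2 fold change -0.04) was not called; TFDP3 had 0 counts. The median log2 fold change was -0.55, against -0.00457 over all tested genes. TFDP1, the main DP partner that E2F1 to E2F6 need for DNA binding, had 4404, 5473 and 4967 counts in untreated and 1681, 1526 and 1799 in rhCYGB libraries, a log2 fold change of -1.37 (SE 0.0439, adjusted p 3.69e-13 by edgeR). TFDP2, the second DP partner, was lower by less, at -0.31 (adjusted p 3.48e-05). RBL2, the third pocket protein, also called p130, was lower at -0.71 (adjusted p 3.10e-09), as RBL1 was, so that of the 3 pocket proteins RB1 alone was higher. MYBL2, which joins MuvB in S phase in place of the pocket proteins, fell from 224 ± 3.26 to 69.0 ± 0.734 CPM (SD, n = 3 each; log2 fold change -1.70). LIN37, a MuvB subunit needed for repression, was higher at 1.72 (adjusted p 2.23e-10). LIN54, the subunit that binds the CHR element, was higher at 0.25 (adjusted p 0.00884), but was not called with upper-quartile factors, total counts or limma on FPKM (0.05 to 0.11).

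Of 9 cyclin and kinase genes whose products phosphorylate pocket proteins, 7 were lower, against 38.6% of all tested genes, and 2 were higher, against 39.0%, with a median of -1.44. The largest falls were those of CCNE2, a cyclin E gene and E2F target (log2 fold change -2.94), and CCNA2, the S-phase cyclin A (-1.65). The rises were those of CCND2, a D-type cyclin with 54, 56 and 36 counts in untreated and 390, 347 and 406 in rhCYGB libraries (3.16), and CDK6, its kinase partner (0.87). Of 7 inhibitor genes 5 were tested, 4 were higher and 1 was lower, read against the same shares, with a median of 1.06. CDKN1C, which encodes p57, was higher at 2.37, and CDKN1A, which encodes p21, rose from 15.7 ± 1.90 to 47.7 ± 3.23 CPM (SD, n = 3 each). CDKN2C, an inhibitor of CDK4 and CDK6 and itself a known E2F target, was lower at -3.06 (adjusted p 3.11e-12 by edgeR). CDKN2A and CDKN2B had 0 counts in all libraries.

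**Figure D5:**
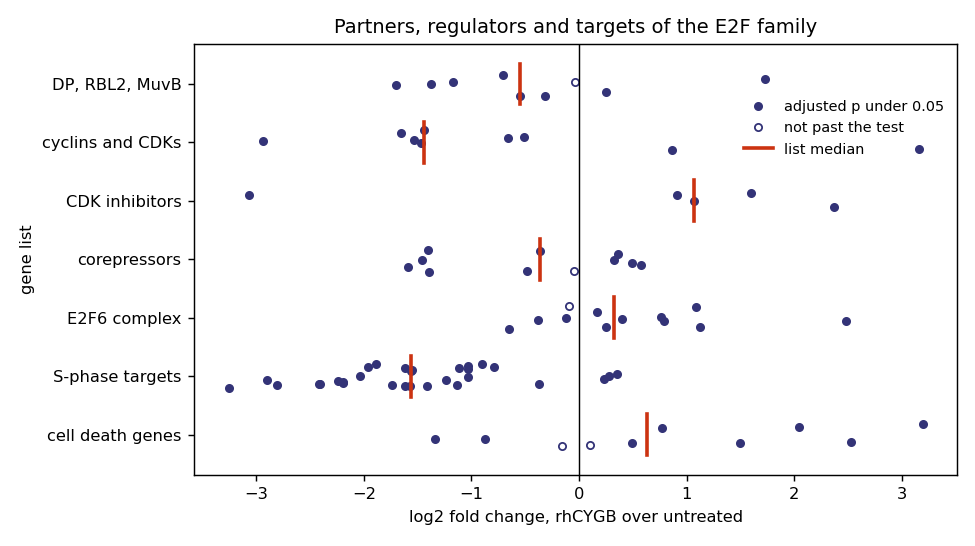
Log2 fold change of rhCYGB over untreated libraries for the tested genes of 7 lists, filled where the adjusted p was under 0.05, with the list's median as a red line. Points of S-phase targets and of cyclins and kinases lie mostly left of 0 (medians -1.57 and -1.44), and those of the inhibitors mostly right (1.06).

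Of 11 genes for corepressors and chromatin enzymes that pocket proteins recruit, 6 were lower, against 38.6% of all tested genes, 4 were higher, against 39.0%, and ARID4B was not called, with a median of -0.36. The share called higher was near that of all genes. SMARCA2 and SMARCA4 encode alternative motors of the SWI/SNF complex. SMARCA2 was lower at -1.59 from low counts (58, 138 and 106 in untreated and 31, 11 and 45 in rhCYGB libraries), and SMARCA4 was higher at 0.49. SUV39H1, a histone H3 lysine methyltransferase, was lower at -1.46, and SIN3A, a scaffold for histone deacetylases, was higher at 0.58. All 4 had an adjusted p under 0.05 by edgeR.

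E2F6 acts within PRC1.6. Of 12 genes for its partners there, 8 were higher, where 39.0% of all tested genes were, 3 were lower, where 38.6% were, and MGA was not called, with a median of 0.32. With upper-quartile factors, total counts and both limma fits on FPKM, 6 of the 12 were called higher and 4 lower. RYBP, which stimulates the ubiquitin ligase of the complex, had 1031, 1234 and 1196 counts in untreated and 6175, 4989 and 5780 in rhCYGB libraries, a rise from 28.2 ± 0.997 to 158 ± 8.17 CPM (SD, n = 3 each; log2 fold change 2.48). Its homologue YAF2 was higher at 1.13. L3MBTL2 and CBX3, which bind histones in the complex, were lower at -0.65 and -0.38. The 6 germline genes that E2F6 is known to silence had at most 7 counts in any library, and none of them was tested.

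Of 30 S-phase targets of E2F, 27 were lower, against 38.6% of all tested genes, and 3 were higher, against 39.0%. By 2-fold or more 24 were lower, against 14.7% of all tested genes, and the median was -1.57. UHRF1, which maintains DNA methylation at replication, was lower at -3.26 (adjusted p 9.86e-16 by edgeR), and GINS1, a subunit of the replicative helicase, at -2.90. EZH2, a Polycomb methyltransferase, and CDT1, which licenses replication origins, were higher at 0.35 and 0.27. CDT1 was not called with limma on log2(FPKM + 1) (0.10, adjusted p 0.103) or with a pseudocount of 0.1 (0.11).

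Of 10 genes of cell death that E2F1 is known to induce, 6 were higher, against 39.0% of all tested genes, and 2 were lower, against 38.6%, with a median of 0.63. HRK and BBC3, which encode BH3-only proteins, were higher at 3.19 and 2.53. TP73, a p53 homologue, and CASP8, an initiator caspase, were lower at -1.34 and -0.88. Of the genes named from these lists, RBL2, CCNE2, CCNA2 and TP73 overlap AKTIP, INTS8, EXOSC9 and TP73-AS1, which had more than 200 counts in every library, and their reads could be split uncertainly if strand was not used.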

How the data were processed

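The authors deposited unnormalized read counts, whole numbers for each gene and transcript. Their deposited FPKM values divide fragments by length and mapped reads. The submitters' processing notes name FastQC 0.11.7, HISAT2 2.1.0 and StringTie 2.1.3b, and of genome builds only mm10, a mouse build. Positions in the transcript table reach 249231298 on chromosome 1 and belong to a build not given in the sources used here, so they were not joined with the promoters, which are RefSeq sequences of GRCh38.p14. No use was made of the TPM columns, 6 in each table.

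Samples were grouped by their labels. In R 4.3.3, edgeR 4.0.16 (filterByExpr, TMM scaling, quasi-likelihood test) was run on all 6 libraries, for genes and for transcripts, and diffSpliceDGE for transcript use; the threshold was an adjusted p of 0.05. The fits were tested on simulated counts. Libraries of 1 group differed beyond counting error, with a chi-square per degree of freedom of 4.67 to 6.62. Alternatives were RLE, upper-quartile and no factors, DESeq2 1.42.0, limma 3.58.1 on log2(FPKM + 1) and with a pseudocount of 0.1, no filter, at least 10 counts in every sample, counts summed from transcripts, the replicate number as a block and each library left out; leaving out libraries for ratios was added after seeing the data.

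The members and gene lists were chosen with earlier results of these data known. Named were all 10 genes, their tested transcripts, TFDP1, TFDP2, RBL2, MYBL2 and, per list, up to 2 rises and 2 falls with the largest change among called genes with at least 1 CPM in the higher group. Genes named only because they were not called, or not tested, complete the counts. An item of the lists is not reported here. Intervals cover the spread between libraries; the floor of 3 counts covers counting error only.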

Additional observations from a re-analysis of the deposited data

How the results depend on the processing

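Under 16 alternatives each, E2F1, E2F2, E2F3, E2F5, E2F6, E2F7, E2F8, RB1 and RBL1 kept their direction and call. E2F4 reversed with upper-quartile factors (-0.12, adjusted p 0.0221), total counts (-0.14, 0.00756) and limma on log2(FPKM + 1) (-0.14, 0.0274) or log2(FPKM + 0.1) (-0.14, 0.0266), where the median of all genes moved to -0.15, -0.17, -0.09 and -0.15, and ranged over -0.0184 to 0.0545 with single libraries left out. Genes of DP partners and MuvB called higher numbered 1 with upper-quartile factors, total counts and both limma fits. S-phase targets called higher numbered 2 with upper-quartile factors and total counts, and 1 with both limma fits.

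Libraries with the same replicate number shared no clear deviation from their group means (correlations of deviations -0.05 to 0.01). This cannot show whether they were handled together. With the replicate block in edgeR, 9 of the 10 genes and 6 transcripts were called. The E2F7 transcript (-0.98, adjusted p 0.0609) and NM_024680 of E2F8 (-2.59, 0.0637) were lost, and NM_001278277 of E2F6 reversed to -2.56. NM_001949 of E2F3 was 0.00587 with RLE factors and 0.00593 with DESeq2. With single libraries left out, NM_001949 ranged over -0.32 to 0.36, NM_001278275 over -4.79 to 0.50, NM_001278277 over -4.61 to 0.94 and NM_198256 over -0.10 to 0.63. NM_001278275 was called only without rhCYGB replicate 2 (adjusted p 0.0425), and NM_001256372 of E2F8, not called in the main test, was called with DESeq2 (-5.15, adjusted p 0.00416) and without rhCYGB replicate 1 (-9.58, adjusted p 0.0410). The cause of these differences was not tested.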

Other observations

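The pseudogene E2F3P2, chosen after its values were seen, had 28, 40 and 21 counts in untreated and 4, 0 and 4 in rhCYGB libraries, a log2 fold change of -3.22 (SE 0.582, adjusted p 0.000125 by edgeR), while E2F3 itself rose. E2F6P1, with 32, 45 and 33 and then 70, 44 and 45 counts, moved with E2F6 (log2 fold change 0.73, adjusted p 0.0221). Reads of such copies cannot be assigned with certainty.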
